A study of Mus musculus with 6 samples.

Results

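The genes described are 10 that connect amino acid supply to the kinase complex mTORC1 and to the transcription factor TFEB. They are the factors Tfeb, Tfe3 and Mitf, the GTPases Rragc and Rragd, the folliculin pair Flcn and Fnip1, and the GATOR subunits Depdc5, Nprl2 and Wdr24. They were found by symbol among 40303 gene models, and each symbol matched 1 model. 9 of the 10 had a mean of at least 10 normalized counts and were tested among 13557 genes. Rragd was under that mean and is given by its values.

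RNA was sequenced from 6 tumours of CT26, a mouse colon carcinoma line, grown under the skin of wild-type BALB/c mice, with 1 tumour per mouse. 3 mice were injected into the peritoneum with PEGylated glutaminase (PEG-glutaminase), an enzyme that breaks down glutamine, at 50 IU per kg. The other 3 received the vehicle, phosphate-buffered saline with 10% glycerol. Both groups had 2 treatments at an interval of 3 days, and all mice carried the wild-type genotype.

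When amino acids are plentiful, Rag GTPases on the lysosome hold mTORC1 there, where Rheb activates it. GATOR1 switches the Rag GTPases off by acting on RagA and RagB, GATOR2 opposes GATOR1, and folliculin with its partner acts on RagC and RagD. Active Rag GTPases also bring TFEB and TFE3 to mTORC1, which phosphorylates them and keeps them out of the nucleus. When amino acids run short, these factors enter the nucleus and bind CLEAR elements of lysosomal and autophagy genes, among them genes of the Rag and folliculin machinery itself. Most of this control acts on proteins, which messenger RNA levels do not show.

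The libraries held 16455052 to 16791267 reads in the PEG-glutaminase group and 17380129 to 18051480 in the vehicle group, recovered from the deposited normalized counts. In 1 vehicle tumour skin genes stood far above the rest. The summed level of 8 keratinocyte markers was 64.3 to 84.4 normalized counts in PEG-glutaminase tumours. It was 7820 in vehicle 1, and 95.2 and 228 in the other vehicle tumours. Skeletal muscle genes also varied between tumours. The summed level of 8 muscle markers was 143, 1584 and 47.3 normalized counts in PEG-glutaminase tumours 1, 2 and 3. In vehicle tumours 1, 2 and 3 it was 496, 195 and 1006. PEG-glutaminase 2 had the lowest summed level of 8 T cell markers, 174 normalized counts. The other PEG-glutaminase tumours had 600 and 871, and vehicle tumours 1033 to 1454, so the groups did not overlap. All 8 were lower, with a median log2 difference of -1.49, where 50% of all tested genes were lower. None passed the test (limma, adjusted p under 0.05), and DESeq2 called 1, where it called 4.18% of the 11967 genes that it gave an adjusted p. The summed level of 7 epithelial markers was low in every tumour, at 243 to 282 normalized counts in the PEG-glutaminase group and 212 to 380 in the vehicle group. The summed level of 8 fibroblast markers was 59566 to 75333 normalized counts in the PEG-glutaminase group and 53281 to 72147 in the vehicle group. In such bulk tissue, fewer cells of a type and less RNA per cell cannot be told apart.

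The core of the CLEAR element is TCACGTG, and the windows from 250 bases before to 50 bases after the start of each gene were searched for it on both strands. 9 of the 10 genes had a window in the RefSeq promoter table of build GRCm38.p6, with 14 windows in all, since Tfeb, Mitf and Tfe3 have several starts. The motif stood in windows of 2 of these 9 genes, Rragc and Fnip1, and in 4.29% of all 27025 genes of that table. The 2 windows are printed because they hold the letters that TFEB is known to bind, on the reference sequence and not on that of the BALB/c tumours. The Rragc window lies at chr4:123917183-123917482 on the plus strand and the Fnip1 window at chr11:54437929-54438228 on the plus strand. Capitals mark the motif, here read on its reverse strand as CACGTGA, which begins 112 bases before the start of Rragc and 75 bases before that of Fnip1.
Rragc: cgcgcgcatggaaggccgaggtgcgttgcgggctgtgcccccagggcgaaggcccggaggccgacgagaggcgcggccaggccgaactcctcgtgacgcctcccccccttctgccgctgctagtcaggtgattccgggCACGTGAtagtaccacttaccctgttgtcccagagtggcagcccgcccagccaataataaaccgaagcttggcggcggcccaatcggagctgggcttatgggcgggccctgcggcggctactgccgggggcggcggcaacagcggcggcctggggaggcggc
Fnip1: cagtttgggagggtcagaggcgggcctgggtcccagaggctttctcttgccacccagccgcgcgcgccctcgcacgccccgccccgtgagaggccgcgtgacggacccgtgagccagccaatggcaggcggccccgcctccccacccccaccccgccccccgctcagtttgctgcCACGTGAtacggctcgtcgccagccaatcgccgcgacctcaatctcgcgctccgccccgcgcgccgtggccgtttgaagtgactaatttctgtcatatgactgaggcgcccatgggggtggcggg
The windows of Tfeb, Tfe3, Mitf, Rragd, Flcn, Depdc5 and Nprl2 did not hold these letters. None of the 14 windows held the related M-box, TCATGTG, a motif known from pigment genes that MITF controls, which stood in 4.31% of all genes of the table. A match describes the letters and is no evidence of binding.

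No gene of the 10 passed the test in either direction, while 5 of 13557 genes did (0.0369%, with 0.00738% higher and 0.0295% lower; limma, adjusted p under 0.05). Of the 9 tested, 1 had an unadjusted p under 0.05, on the lower side, where 18.4% of all tested genes did (8.92% higher and 9.51% lower), and the groups did not overlap in 2, where they did not overlap in 25.8% of all tested genes. These shares are near or below those of all genes. DESeq2 and edgeR on the recovered reads also called 0 of the 9, each with 1 gene at an unadjusted p under 0.05. Over all genes with an adjusted p, DESeq2 called 4.18% and edgeR 0%. The median log2 difference over the 9 was -0.08, with 6 lower and 3 higher, beside a median of -0.000050 and 50% lower over all tested genes. The largest departures were lower levels of Tfeb and Nprl2 and, at very few reads, a higher level of Rragd.

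**Figure D1:**
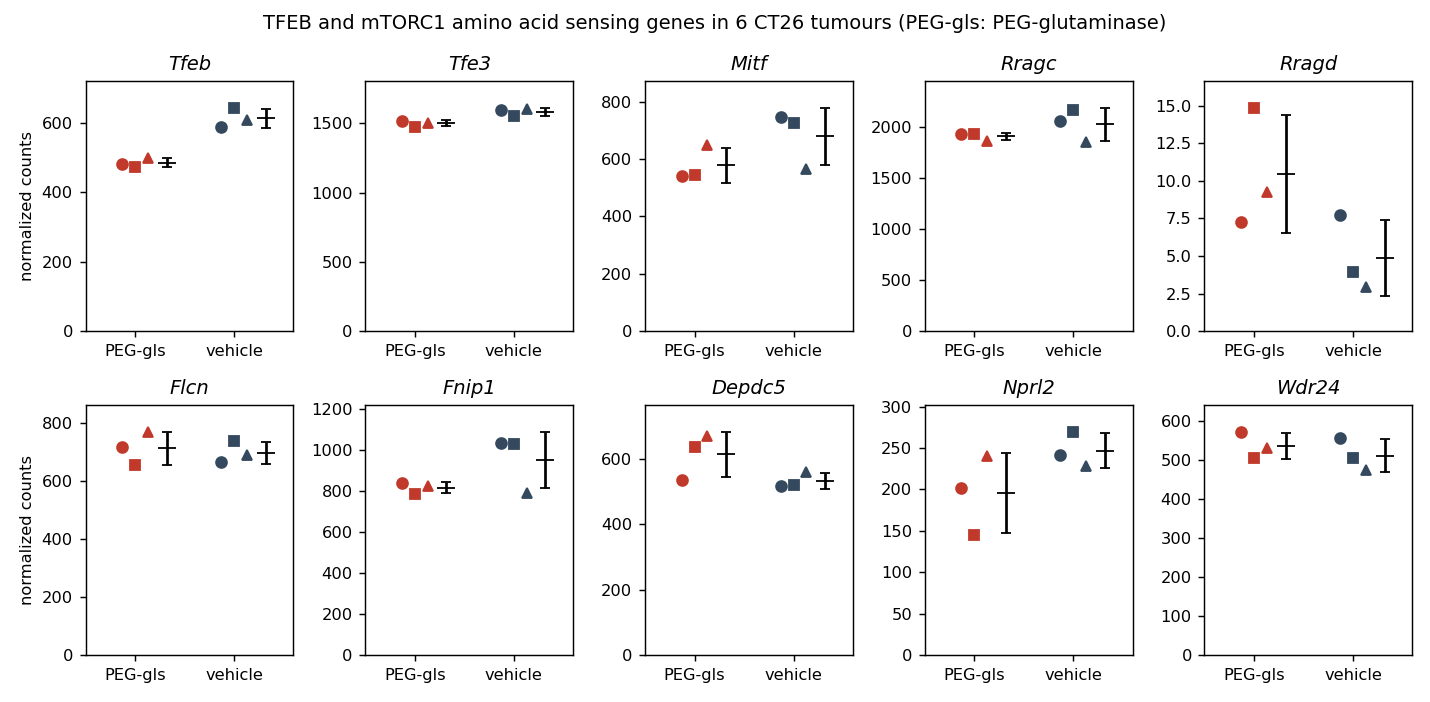
Normalized counts (vertical axes, from 0) of the 10 genes in each tumour, with PEG-glutaminase tumours in red at the left and vehicle tumours in dark blue at the right of each panel; circle, square and triangle are replicates 1, 2 and 3, and the black mark is the mean with its SD (n = 3). All 3 Tfeb values of PEG-glutaminase tumours, 473 to 500.0, sit under the vehicle values, 589 to 644, while most other panels overlap.

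Tfeb encodes transcription factor EB, the main activator of lysosomal and autophagy genes (ENSMUSG00000023990). It had 483, 473 and 500.0 normalized counts in PEG-glutaminase tumours 1, 2 and 3, against 589, 644 and 607 in vehicle tumours 1, 2 and 3. Each PEG-glutaminase tumour was below every vehicle tumour, and the gap of 89.2 between the groups exceeded the range within either group. The means were 485 ± 13.6 in PEG-glutaminase tumours and 613 ± 27.7 in vehicle tumours (SD, n = 3 each), a ratio of 0.791. The log2 difference was -0.34 ± 0.09 (SE), with a 95% interval of -0.53 to -0.14. By unadjusted p (limma, 0.00338) it was the 339th smallest of 13557 genes, and it did not pass (limma adjusted p = 0.134). The adjusted p was 0.0761 with DESeq2 and 0.148 with edgeR, and over all alternatives it ran from 0.0761 to 0.335. Leaving out 1 library in turn kept the log2 difference between -0.37 and -0.30.

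Tfe3, the relative of Tfeb with the same DNA preference, was steadier (ENSMUSG00000000134). It had 1522, 1477 and 1504 normalized counts in PEG-glutaminase tumours 1, 2 and 3, against 1599.5, 1551 and 1602 in vehicle tumours. The groups did not overlap, but they lay close together: the means were 1501 ± 22.4 in PEG-glutaminase tumours and 1584 ± 28.8 in vehicle tumours (SD, n = 3 each). The log2 difference was -0.08 ± 0.07 (SE), with a 95% interval of -0.23 to 0.08 (limma adjusted p = 0.57). That interval does not reach the -0.34 measured for Tfeb, but it overlaps the Tfeb interval of -0.53 to -0.14. The difference between the 2 genes' effects was not tested.

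Mitf, the family member known for pigment cells, mast cells and osteoclasts, varied more within the groups than Tfeb and Tfe3 (ENSMUSG00000035158). It had 541, 544 and 649 normalized counts in PEG-glutaminase tumours and 747, 725 and 565 in vehicle tumours. PEG-glutaminase 3 was above vehicle 3, so the groups overlapped. The log2 difference was -0.23 ± 0.13 (SE; limma adjusted p = 0.354), -0.35 without vehicle 3 and -0.11 without PEG-glutaminase 2 and vehicle 1 together. Of 8 melanocyte markers, 4 were at 0 in all libraries, the pigment enzyme genes Tyr, Tyrp1 and Dct among them, and none was tested. The summed level of the list was 3.09 to 5.94 normalized counts in PEG-glutaminase tumours and 7.85 to 18.4 in vehicle tumours. Most of that sum was 1 gene with few reads, Pmel, at 2 to 5 reads in PEG-glutaminase tumours and 7 to 12 in vehicle tumours. The summed level of 7 mast cell markers was 888 to 1405 normalized counts in PEG-glutaminase tumours and 1409.6 to 2222 in vehicle tumours. All 7 were lower, where 50% of all tested genes were, with Kit near 0 at -0.0095. None passed the test by limma. An unadjusted p under 0.05 on the lower side was found for 4, where 9.51% of all tested genes had one. DESeq2 called 2 lower and edgeR 0, where DESeq2 called 4.18% and edgeR 0% of all genes with an adjusted p. The summed level of 7 osteoclast markers was 1267 to 1525 normalized counts in PEG-glutaminase tumours and 1003 to 1276 in vehicle tumours. Most of that sum was Nfatc1, at 773 to 991 in PEG-glutaminase tumours and 774 to 882 in vehicle tumours. Calcr had at most 1 read and Dcstamp at most 4 in any library. Of the 5 tested, 4 were higher and 1, Ocstamp, was lower (log2 difference -0.66). None passed by limma, and DESeq2 called 1 higher. The part of melanocytes, mast cells and osteoclasts in the Mitf level was not tested.

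Tfec, the fourth gene of the family and best known from macrophages, lay on the other side of 0. It had 80.8, 139 and 93.6 normalized counts in PEG-glutaminase tumours, against 61.8, 64.7 and 49.1 in vehicle tumours. The groups did not overlap, and the log2 difference of 0.80 ± 0.24 (SE) did not pass (limma adjusted p = 0.153). The summed level of 10 macrophage markers was 32898 to 37984 normalized counts in PEG-glutaminase tumours and 28748 to 40782 in vehicle tumours, so it did not separate the groups. Of the 10 markers 6 were higher and 4 lower, with a median log2 difference of 0.087. The complement genes C1qa, C1qb and C1qc and the receptor gene Mertk were the lower ones, at -0.18 to -0.063, while the mannose receptor gene Mrc1, at the other end, had a log2 difference of 1.40 (limma adjusted p = 0.124; DESeq2 adjusted p = 0.00251). The part of macrophages in the Tfec level was not tested.

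Per kilobase of the longest transcript, Tfe3 and Tfeb were the most abundant of the family and Tfec the least. Tfe3 stood at 237 ± 3.54 normalized counts per kilobase in PEG-glutaminase tumours and 250.3 ± 4.55 in vehicle tumours (SD, n = 3 each). Tfeb stood at 207 ± 5.80 normalized counts per kilobase in PEG-glutaminase tumours and 262 ± 11.8 in vehicle tumours. Tfe3 was above Tfeb in PEG-glutaminase tumours, by more than the SD of either, while in vehicle tumours the means differed by less than the SD of Tfeb. This order rests on the lengths used, 6328 bases for Tfe3 and 2342 for Tfeb. The SDs do not cover that choice, so which of the 2 genes is the more abundant in either group cannot be told. Mitf stood at 118 ± 12.6 per kilobase in PEG-glutaminase tumours and 139 ± 20.3 in vehicle tumours, and Tfec at 30.8 in PEG-glutaminase tumours and 17.3 in vehicle tumours. Tfeb made up 34.4% to 35.5% of the family's summed level per kilobase in PEG-glutaminase tumours and 37.2% to 40.3% in vehicle tumours.

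The ratio of 2 genes within a library does not depend on how the libraries were scaled. Ratios were taken for 6 pairs within a family or complex, chosen after the values were seen, so they are a description with no test. Tfeb over Tfe3, both in normalized counts, was 0.317, 0.32 and 0.332 in PEG-glutaminase tumours and 0.368, 0.415 and 0.379 in vehicle tumours. The groups did not overlap, while Tfeb over Mitf and Mitf over Tfe3 did overlap.

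**Figure D2:**
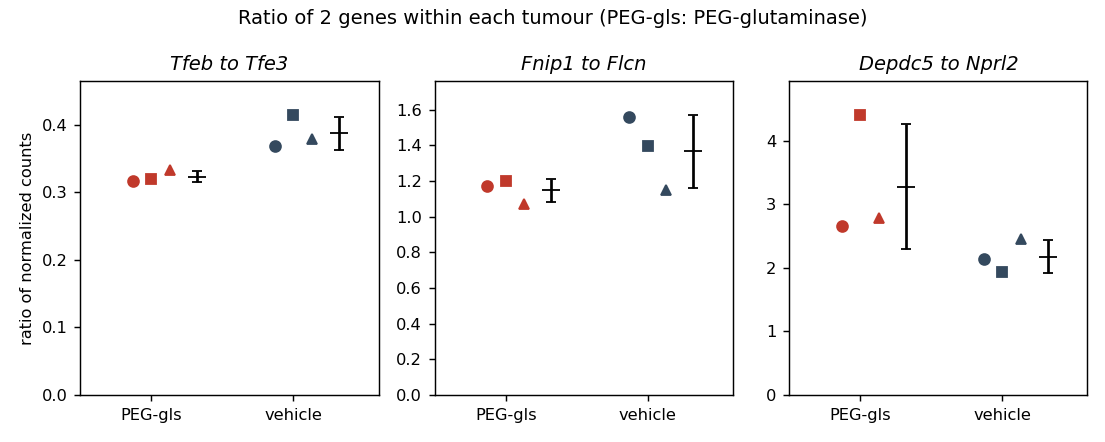
Ratio of the normalized counts of 2 genes within each tumour (vertical axes, from 0), with PEG-glutaminase tumours in red at the left and vehicle tumours in dark blue at the right; circle, square and triangle are replicates 1, 2 and 3, and the black mark is the mean with its SD (n = 3). Tfeb over Tfe3 and Depdc5 over Nprl2 do not overlap between the groups, and Fnip1 over Flcn does.

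Rragc encodes RagC, the partner of RagA in the GTPase pair that docks mTORC1 and TFEB on the lysosome (ENSMUSG00000028646). It had 1925, 1928 and 1866 normalized counts in PEG-glutaminase tumours, against 2054, 2168 and 1847 in vehicle tumours. Vehicle 3 was the lowest of all 6, so the groups overlapped. Rragc differed by a log2 value of -0.08 ± 0.08 (SE), with a 95% interval of -0.26 to 0.10 (limma adjusted p = 0.605). It was -0.031 without vehicle 2 and -0.15 without vehicle 3. In GENCODE M21, 264 exon bases of Rragc, 7.90% of its exon bases, overlap a gene on the opposite strand, and since the sources used here name no strand setting, those reads cannot be assigned.

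Rragd encodes RagD, the other partner of RagA and RagB, known as a target gene of TFEB and its relatives (ENSMUSG00000028278). It was barely detected: the recovered reads were 7, 15 and 9 in PEG-glutaminase tumours and 8, 4 and 3 in vehicle tumours. The normalized counts were 7.25, 14.8 and 9.26 in PEG-glutaminase tumours and 7.73, 3.92 and 2.94 in vehicle tumours. PEG-glutaminase 1 lay under vehicle 1, so the groups overlapped. Summed over the group, PEG-glutaminase tumours had 31 reads, with an exact Poisson 95% interval of 21.1 to 44, and vehicle tumours 15, with an interval of 8.40 to 24.7, both for counting error only. The log2 difference was 0.99, and 0.73 to 1.32 when 1 library was left out in turn. At so few reads it also moved with the pseudocount, to 0.65 with 5 and 1.07 with 0.5. With no filter on low values it could be tested and did not pass (limma adjusted p = 0.425, 95% interval -0.08 to 2.07).

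Per kilobase, Rraga and Rragc carried nearly all Rag messenger RNA. Rragc made up 42.4% to 48.1% of the summed level per kilobase of the 4 Rag genes in PEG-glutaminase tumours and 43.3% to 46.7% in vehicle tumours. Rraga, which encodes RagA, made up 51.6% to 57.4% in PEG-glutaminase tumours and 53.1% to 56.6% in vehicle tumours. Rragd over Rragc in reads differed by 1.24 on the log2 scale, a ratio that rests on the same few Rragd reads. In share, Rragd made up 0.0931% to 0.216% in PEG-glutaminase tumours and 0.0403% to 0.103% in vehicle tumours, and Rragb, with 8 reads over the PEG-glutaminase group and 6 over the vehicle group, was as rare. The sources used here do not say how reads shared by such related genes were counted.

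Flcn encodes folliculin, which acts on RagC and RagD and lets mTORC1 phosphorylate TFEB (ENSMUSG00000032633). It had 716, 654 and 768 normalized counts in PEG-glutaminase tumours and 664, 738 and 690 in vehicle tumours, with the groups interleaved. The means were 713 ± 57.1 in PEG-glutaminase tumours and 697 ± 37.6 in vehicle tumours (SD, n = 3 each). Its log2 difference was 0.03 ± 0.09 (SE), with a 95% interval of -0.18 to 0.24 (limma adjusted p = 0.888), and its sign depended on single libraries, at -0.025 without PEG-glutaminase 3 and -0.0039 without vehicle 1.

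Fnip1 encodes a binding partner of folliculin (ENSMUSG00000035992). It had 838, 784 and 823 normalized counts in PEG-glutaminase tumours, against 1033, 1028 and 791 in vehicle tumours. Vehicles 1 and 2 stood above all PEG-glutaminase tumours, while vehicle 3 lay among them. Fnip1 had a log2 difference of -0.21 ± 0.11 (SE), with a 95% interval of -0.46 to 0.04 (limma adjusted p = 0.33), and -0.34 without vehicle 3. Vehicle 3 was the lowest vehicle tumour for Mitf, Rragc, Rragd, Nprl2 and Wdr24 as well. Fnip1 over Flcn was 1.17, 1.2 and 1.07 in PEG-glutaminase tumours and 1.56, 1.39 and 1.15 in vehicle tumours, with the groups overlapping.

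Depdc5 encodes the GATOR1 subunit known to contact the Rag GTPases (ENSMUSG00000037426). It had 535, 638 and 669 normalized counts in PEG-glutaminase tumours, against 517, 521 and 559 in vehicle tumours. PEG-glutaminase 2 and 3 were above every vehicle tumour and PEG-glutaminase 1 was not. The means were 614 ± 69.7 in PEG-glutaminase tumours and 532 ± 23.4 in vehicle tumours (SD, n = 3 each). Depdc5 differed by a log2 value of 0.20 ± 0.11 (SE), with a 95% interval of -0.04 to 0.44 (limma adjusted p = 0.331).

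Nprl2 encodes the GATOR1 subunit that carries its GTPase-activating function (ENSMUSG00000010057). It had 202, 145 and 241 normalized counts in PEG-glutaminase tumours, against 241, 269.8 and 229 in vehicle tumours. PEG-glutaminase 2 was the lowest of all 6, and PEG-glutaminase 3 lay among the vehicle tumours. Nprl2 differed by a log2 value of -0.36 ± 0.18 (SE), with a 95% interval of -0.76 to 0.05 (limma adjusted p = 0.315). It was -0.16 without PEG-glutaminase 2 and -0.52 without PEG-glutaminase 3, the widest range among the 9 tested genes.

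The 2 GATOR1 genes thus lay on opposite sides of 0. Depdc5 over Nprl2, both in normalized counts, was 2.65, 4.41 and 2.78 in PEG-glutaminase tumours and 2.14, 1.93 and 2.45 in vehicle tumours. These ranges did not overlap. On the log2 scale the ratio differed by 0.56, and by 0.33 without PEG-glutaminase 2. The third GATOR1 gene, Nprl3, had a log2 difference of -0.13 (limma adjusted p = 0.498).

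Wdr24 encodes a GATOR2 subunit (ENSMUSG00000025737). It had 573, 506 and 531 normalized counts in PEG-glutaminase tumours and 555, 504 and 474 in vehicle tumours, with the groups interleaved. Its log2 difference was 0.07 ± 0.10 (SE), with a 95% interval of -0.15 to 0.29 (limma adjusted p = 0.728). It was 0.018 without vehicle 3 and 0.17 without PEG-glutaminase 2 and vehicle 1 together.

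**Figure D3:**
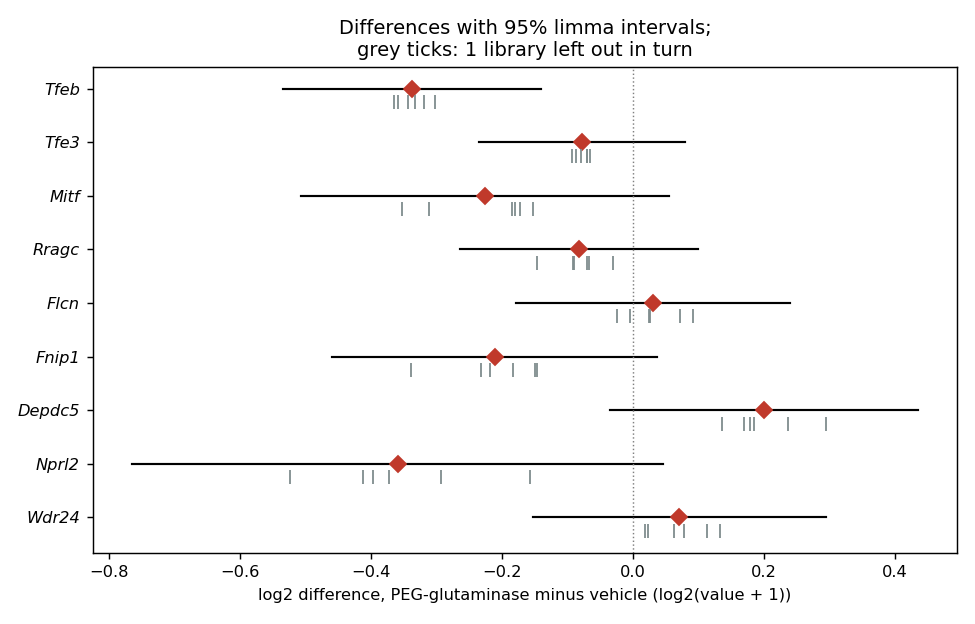
Log2 difference, PEG-glutaminase minus vehicle on the log2(value + 1) scale (horizontal axis), of the 9 tested genes; red diamonds are the estimates, black lines the 95% limma intervals and grey ticks the estimates with 1 library left out in turn. The unadjusted interval of Tfeb, -0.53 to -0.14, is the only 1 of the 9 that leaves out 0.

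The pathway around the 10 genes was described with lists, likewise chosen with earlier results known. Of 80 other listed genes, 79 were tested and none passed by limma, where 0.0369% of all tested genes were called. By limma, 16 had an unadjusted p under 0.05, where 18.4% of all tested genes had one. DESeq2 called 1 and edgeR 0, where DESeq2 called 4.18% and edgeR 0% of all genes with an adjusted p. The median log2 difference of the 79 genes was -0.05, with 30 higher and 49 lower. Below, the 2 genes of smallest p of each list are given. Rraga, Rragb, Nprl3, Gpnmb and the named cell type markers, Mrc1 among them, are named outside that rule, after their values were seen.

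Of 13 genes of the Rag, Ragulator and folliculin list, 11 were tested, with 3 higher, 8 lower and a median log2 difference of -0.08. Lamtor4, a subunit of the Ragulator complex that anchors the Rag GTPases, had 517, 513 and 535 normalized counts in PEG-glutaminase tumours, against 542, 735 and 728 in vehicle tumours. Vehicle 1 lay just above the PEG-glutaminase tumours and the other vehicle tumours well above them (log2 difference -0.34 ± 0.12 (SE), limma adjusted p = 0.198). Next to it by p was Fnip1. Of 12 genes of GATOR1, GATOR2 and KICSTOR, 5 were higher and 7 lower, with a median of -0.07. None had an unadjusted p under 0.05 by limma, and Nprl2 and Depdc5 came first.

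Of 8 amino acid sensor genes, 4 were higher and 4 lower. Lars, the leucyl-tRNA synthetase also proposed as a leucine sensor, had 6225, 4745 and 5552 normalized counts in PEG-glutaminase tumours, against 4631, 4267 and 4709.9 in vehicle tumours. Sesn2, a leucine-binding inhibitor of GATOR2 that the stress factor ATF4 is known to induce, had 831, 854 and 823 normalized counts in PEG-glutaminase tumours, against 663, 794 and 671 in vehicle tumours. In neither gene did the groups overlap, though PEG-glutaminase 2 came close to vehicle 3 in Lars. The log2 differences were 0.27 ± 0.10 (SE) for Lars and 0.24 ± 0.09 (SE) for Sesn2 (limma adjusted p = 0.221 and 0.224).

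Of 9 genes of mTORC1, Rheb and the TSC complex, 6 were higher and 3 lower. The median of 0.0096 depended on single libraries, at 0.097 without vehicle 1 and -0.0092 without vehicle 3. Deptor, an inhibitory subunit of mTOR complexes, had 152, 168 and 164 normalized counts in PEG-glutaminase tumours, against 131, 84.4 and 122 in vehicle tumours. The groups did not overlap, and the log2 difference of 0.54 ± 0.19 (SE) did not pass (limma adjusted p = 0.185). Tsc2, part of the complex that switches Rheb off, stood at 0.15 ± 0.08 (SE; limma adjusted p = 0.35).

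Among the 4 genes of mTORC1 substrates, both translation repressors of the 4E-BP family came first by p and lay on opposite sides of 0. Eif4ebp2 had 1121, 1208 and 1156 normalized counts in PEG-glutaminase tumours, against 1018, 943 and 1017 in vehicle tumours. There was no overlap between the groups (log2 difference 0.23 ± 0.08 (SE), limma adjusted p = 0.189). Eif4ebp1 had 4949.8, 3588 and 4749 normalized counts in PEG-glutaminase tumours, against 4659, 6081 and 4857 in vehicle tumours, with the groups overlapping (log2 difference -0.24 ± 0.14 (SE), limma adjusted p = 0.399). Leaving out 1 library in turn put Eif4ebp1 between -0.32 and -0.091. The 4 genes of the lysosomal calcium channel and calcineurin, the phosphatase that frees TFEB for the nucleus, included 3 lower and 1 higher. Ppp3ca, a catalytic subunit, stood at -0.19 ± 0.10 (SE; limma adjusted p = 0.305) and Ppp3r1, the regulatory subunit, at -0.07 ± 0.08 (SE; limma adjusted p = 0.65), between -0.13 and -0.013 when 1 library was left out.

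**Figure D4:**
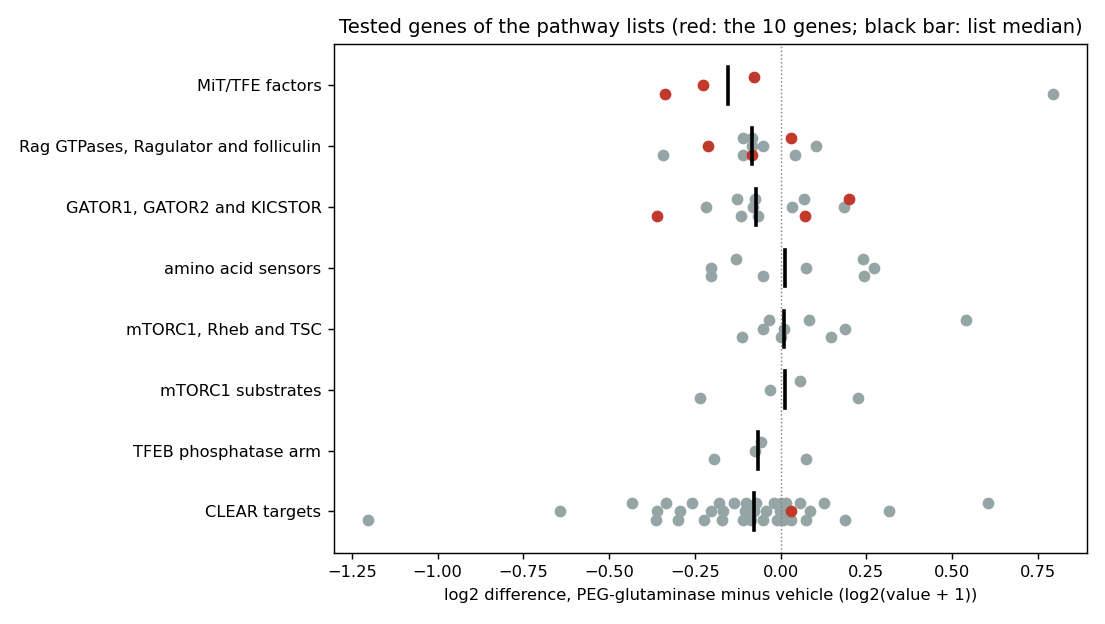
Log2 difference, PEG-glutaminase minus vehicle on the log2(value + 1) scale (horizontal axis), of every tested gene in each pathway list (rows); red points are those of the 10 genes that were tested, grey points the other listed genes, and black bars the list medians. The medians lie between -0.15 and 0.012, with Tfec at 0.80 and Gpnmb at -1.20 as the farthest points.

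CLEAR targets are the genes known to respond to TFEB. Of 40 listed, Flcn and Rragd among them, 39 were tested, with 13 higher and 26 lower, and a median log2 difference of -0.08. None passed by limma, and DESeq2 called 1 and edgeR 0, where DESeq2 called 4.18% of all genes with an adjusted p. An unadjusted p under 0.05 was found for 10, 2 higher and 8 lower, where 18.4% of all tested genes had one, 8.92% higher and 9.51% lower. The groups did not overlap in 14 of the 39, where they did not overlap in 25.8% of all tested genes. Vps11, a subunit of the tethering complexes that fuse vesicles with lysosomes, had 952, 933 and 1035 normalized counts in PEG-glutaminase tumours, against 1204, 1209 and 1179 in vehicle tumours. All PEG-glutaminase tumours were below all vehicle tumours, and the log2 difference of -0.30 ± 0.08 (SE) did not pass (limma adjusted p = 0.134). Map1lc3b, whose protein LC3B coats autophagosomes, had 1529, 1328 and 1675 normalized counts in PEG-glutaminase tumours, against 1831, 2118 and 1755 in vehicle tumours (log2 difference -0.33 ± 0.11 (SE), limma adjusted p = 0.167).

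The member of the CLEAR list that DESeq2 called was Gpnmb, a transmembrane glycoprotein of macrophages and pigment cells that MITF and its relatives are known to induce. It had 783, 562 and 785 normalized counts in PEG-glutaminase tumours, against 2056, 2105 and 975 in vehicle tumours. All vehicle tumours were above the PEG-glutaminase tumours, with vehicle 3 nearest to the PEG-glutaminase tumours. The log2 difference was -1.20 ± 0.35 (SE; limma adjusted p = 0.197; DESeq2 adjusted p = 0.0271), and without vehicle 3 limma called it too. Of the CLEAR genes with a promoter window, 14 held TCACGTG, and these had a median log2 difference of -0.014 and a range of -0.36 to 0.32, with 9 lower. The 18 without the motif, of which 17 were tested, had a median of -0.11 with 10 lower. Over all tested genes with a window, the median was 0.00091 with the motif and 0.0034 without. CLEAR genes are known in part for this motif, so its frequency among them is no result.

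The genes whose values over the 6 libraries lay closest to those of the factors were sought among all tested genes, by the root mean square distance between log2 deviations from each gene's mean. For Tfeb these were Mkrn1, a ubiquitin ligase, at a distance of 0.019, Dazap2 at 0.020 and Cnn2, an actin-binding calponin, at 0.027, beside a spread of Tfeb itself of 0.17. For Tfe3 they were Trak1, an adaptor for mitochondrial transport, Stk11, the kinase LKB1, and Fbln5, a matrix protein, at 0.014 to 0.020, beside a spread of 0.044. For Mitf they were Zfp30 at 0.018, Kif3c at 0.045 and Ift25 at 0.046, beside a spread of 0.19. With 13557 genes and 6 libraries close matches arise readily, and the distances describe only these libraries.

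The authors' deposited table also holds a comparison of its own. There Tfeb had a log2 fold change of -0.25 ± 0.09 (SE), with an adjusted p of 0.113, the lowest adjusted p among the 10 genes. The other values in the authors' deposited table ran from -0.36 for Nprl2 to 0.67 for Rragd, which had no adjusted p there. The unadjusted Wald p there was under 0.05 for Tfeb (0.00803), Depdc5 (0.0222), Nprl2 (0.0302) and Fnip1 (0.0349). The share of all gene models under 0.05 by that unadjusted p was not computed, so these genes have no background to be set against. By adjusted p, a stricter cut that none of the 10 genes met, 447 of 11336 gene models (3.94%) were under 0.05 there. The mean signal in the authors' deposited table was 544 for Tfeb, while the mean of the 6 library columns was 549. It matched the mean of the 6 columns within 0.1% for only 4.02% of gene models with a mean of at least 10. The deposited comparison and the 6 columns therefore differ in scaling, in the libraries used or in other settings, and the sources used here do not say which.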

How the data were processed

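The deposited table gives, per gene model of BALB/cJ mice, the read count divided by a library size factor, a signal in normalized counts. Per the submitters' processing notes, FastQC, STAR, featureCounts, DESeq2 and DESeq were used. The sources used here name no versions, genome build or strand setting. The authors' deposited table also holds their own comparison as log2 fold change with standard error, a Wald score and p-values, per the file headers. Of 40396 rows, 93 repeat a gene model and were dropped.

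Dividing each column by its smallest step gave whole reads (tolerance 0.01) for 100% of non-zero values. In PEG-glutaminase 2 the step lies near 1, so there the recovery rests on these values alone. The main test was limma 3.58.1 (R 4.3.3; mean trend, robust) on log2(value + 1), two-sided, for genes with a mean of at least 10, adjusted after Benjamini and Hochberg over 13557 genes, at a threshold of 0.05. This scale understates the change of low genes. The settings varied were the pseudocount (0.5 or 5), the filter (none, or at least 50 on average), TMM scaling, the replicate block, edgeR 4.0.16 and DESeq2 1.42.0 on the recovered reads, and each library left out. Leaving out PEG-glutaminase 2 and vehicle 1 together was added after seeing the data. The fits were tested on simulated data. P-values measure the spread between mice, and intervals on reads cover counting error only.

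The 10 genes and the lists were chosen with earlier results of these data known. Named were all 10 genes, the 2 of smallest p of each pathway list with no called gene, and the 3 genes nearest to Tfeb, Tfe3 and Mitf. Transcript lengths are those of the longest GENCODE M21 transcript, used only for levels per kilobase. Promoter windows are from RefSeq on GRCm38.p6, another assembly than the gene models.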

Additional observations from a re-analysis of the deposited data

How the results depend on the processing

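Of the 10 genes, 0 were called under any of the 16 alternatives (lowest adjusted p 0.0761, Tfeb with DESeq2; 1 to 3 genes at an unadjusted p under 0.05), and 142 of 144 values of the 9 tested genes kept their direction. The exceptions were Flcn at -0.025 without PEG-glutaminase 3 and -0.0039 without vehicle 1, and the causes were not tested. Leaving out 1 library put Flcn between -0.025 and 0.091, and the log2 ratio of Tfeb to Mitf, -0.11 with all libraries, between -0.21 and 0.0092, where the positive value came without vehicle 3. Over all genes, 5 were called with limma, 136 with no filter, 1 with the replicate block, 3 without PEG-glutaminase 2 and vehicle 1 together, 500 with DESeq2 (2253 at an unadjusted p under 0.05), 0 with edgeR under either scaling (2554 and 2550 unadjusted), and 0 to 25 when 1 library was left out. Of the other listed pathway genes, 1 was called with DESeq2 and 0 to 1 when 1 library was left out, namely Gpnmb without vehicle 3. The replicate numbers gave no pairing: same-numbered tumours deviated from their group means with correlations across genes of -0.13, -0.21 and -0.22, and with the block Tfeb had an adjusted p of 0.263 by limma. Groups of 3 limit every test here, and Rragd is limited by its few reads.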
